A study of Mus musculus with 12 samples.

Results

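The hypertrophic zone of the mouse femoral growth plate was compared with the proliferative zone in 8 of the 12 samples of the study, 4 per zone, chosen by the zone in their titles. The growth plate is the cartilage in which a long bone lengthens. Its cells divide in columns in the proliferative zone, and in the hypertrophic zone they swell, mineralise the matrix around them and are replaced by invading vessels, marrow and bone. The hypertrophic zone therefore borders the marrow. All samples came from Swiss White mice aged 14 days, and no genotype or treatment is stated. The zones were cut from cryosections by microdissection and their RNA was amplified before hybridisation. The number of animals is not stated, nor whether each sample is a separate animal, so the errors and p-values below measure the spread between these samples, which may be technical.

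Hypertrophic and proliferative RNA lay together on 2 two-colour arrays with the dyes exchanged, and this is the direct path. The remaining 2 samples of each zone lay on 4 arrays against the prehypertrophic zone between them, and the sum of these steps is the indirect path. Arrays 1 and 2 form the direct path and arrays 3 to 6 the indirect path, and the paths share no sample. Between 93.2% and 96.2% of the probes' spots were well above background in these 8 samples. Levels correlated across genes, which are not independent replicates, at 0.973 to 0.979 among hypertrophic samples, at 0.964 to 0.977 among proliferative samples and at 0.897 to 0.931 between the zones. As the zone labels say, the hypertrophic collagen Col10a1 was higher by 4.74 on the log2 scale and the matrix protease Mmp13 by 5.71. A change is the log2 ratio of hypertrophic over proliferative signal with the standard error of a limma fit to all 6 arrays (n = 4 samples per zone). A feature is called when its Benjamini-Hochberg adjusted p over all features tested is under 0.05. By this rule, 18 of 47 classic cartilage and hypertrophy markers, a list that mixes both zones, were higher, 20 lower and 9 not passed. These are shares of 38.3% and 42.6%, against 28.2% higher and 30.7% lower of all features. A level is a log2 signal relative to the sample's 75th percentile, and it is compared between samples, not between genes.

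The difference between the zones was broad. Of 27173 features tested, 58.9% were called, 28.2% higher and 30.7% lower in the hypertrophic zone, and the median change was -0.03. Of the features with levels in all 8 samples, 37.9% had hypertrophic and proliferative levels that did not overlap. Large changes on the direct path returned on the indirect path. Of 1999 features at least 2-fold higher on both direct arrays, 1990 were also higher by the indirect path and 1880, or 94.0%, were again at least 2-fold higher, against 9.76% of all features. Of 1250 features at least 2-fold lower on both direct arrays, 1245 were lower and 1142, or 91.4%, at least 2-fold lower by the indirect path, against 6.51% of all features. Their median change was 1.75 directly and 1.65 indirectly for the higher features, and -1.55 and -1.48 for the lower ones. A test of the difference between the paths, in a fit with a separate term for each, called 0 of 26801 features, with 1485 at an unadjusted p under 0.05. On 6 arrays this test has little power, so the count of 0 does not show that the paths are equal. Ntn4, for example, changed by 4.73 directly and by 7.07 indirectly and was not called.

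The largest rises outside the classic cartilage markers were in enzymes, carriers and regulators of several pathways. Anxa3, a calcium-dependent membrane-binding annexin, had levels of -1.17, -1.92, -1.44 and -1.73 in the proliferative samples and of 4.06, 3.78, 3.75 and 3.90 in the hypertrophic samples. All 4 hypertrophic levels lay far above all proliferative ones, and the change was 5.53 ± 0.07 (adjusted p = 1.8e-05 by limma). Its 4 prehypertrophic levels, 3.34, 3.38, 3.60 and 3.28, were already close to the hypertrophic ones. The same held for Gldc, the glycine-cleaving decarboxylase of mitochondria, which changed by 5.24 ± 0.10 over the whole distance and by 4.77 from the proliferative to the prehypertrophic zone. Cds1, which makes CDP-diacylglycerol for phosphoinositide synthesis, changed by 5.39 ± 0.21 and by 4.54 over the first step. The hypoxia-inducible factor Epas1 changed by 5.68 ± 0.16 and by 4.21 over the first step, and every hypertrophic sample was saturated for it. With its 3 probes averaged, the change of Epas1 was 3.28. The transcript 1700025K24Rik exceeded background clearly in 0 of 4 proliferative and in 4 of 4 hypertrophic samples, and it was at least 46.2-fold higher in the hypertrophic zone. Its prehypertrophic levels of -1.64, -1.87, -1.71 and -1.11 also lay nearer to the hypertrophic ones, with a second step of 1.12.

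Another group of these genes lay near the proliferative level in the prehypertrophic zone. The protease inhibitors Stfa1 and Cstdc4, which belong to the stefins, had proliferative levels of 0.77, -0.13, 0.03 and -0.16 and of 0.23, -0.61, -0.63 and -0.87. Stfa1 reached 5.94, 5.40, 5.75 and 5.40 in the hypertrophic samples, 2 of them saturated, and Cstdc4 reached 5.11, 4.85, 4.91 and 5.02. Neither gene's zones overlapped, and the neutrophil sums given below rose between the same samples. Their changes were 5.40 ± 0.08 and 5.25 ± 0.10, of which 0.42 and 0.46 fell in the first step. Spns2, the exporter of sphingosine-1-phosphate, changed by 5.59 ± 0.21 and by 1.08 over the first step, and it was well above background in 1 of the 4 proliferative samples.

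Between these patterns lay genes with a large part of their change in each step. Slco2b1, an organic anion carrier, changed by 5.67 ± 0.27, the secreted phospholipase Pla2g10 by 5.43 ± 0.43, the non-coding transcript Dleu2 by 5.55 ± 0.11 and the netrin Ntn4, a laminin-binding basement membrane protein, by 5.51 ± 0.60. Their changes over the first step were 3.12, 3.84, 2.62 and 3.65. The second step passed the test for all of these but Ntn4, at 1.86 (adjusted p = 0.0563 by limma). The proliferative levels of Ntn4 were spread widely, at -5.09, -4.00, -7.88 and -7.15, and it was well above background in 2 of these 4 samples. Those of Pla2g10 were 0.43, -0.96, -1.85 and -2.62, and its change was 4.83 directly and 6.63 indirectly. Slco2b1 changed by 5.32 directly and 6.37 indirectly, and Dleu2 by 5.40 and 5.83.

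**Figure D1:**
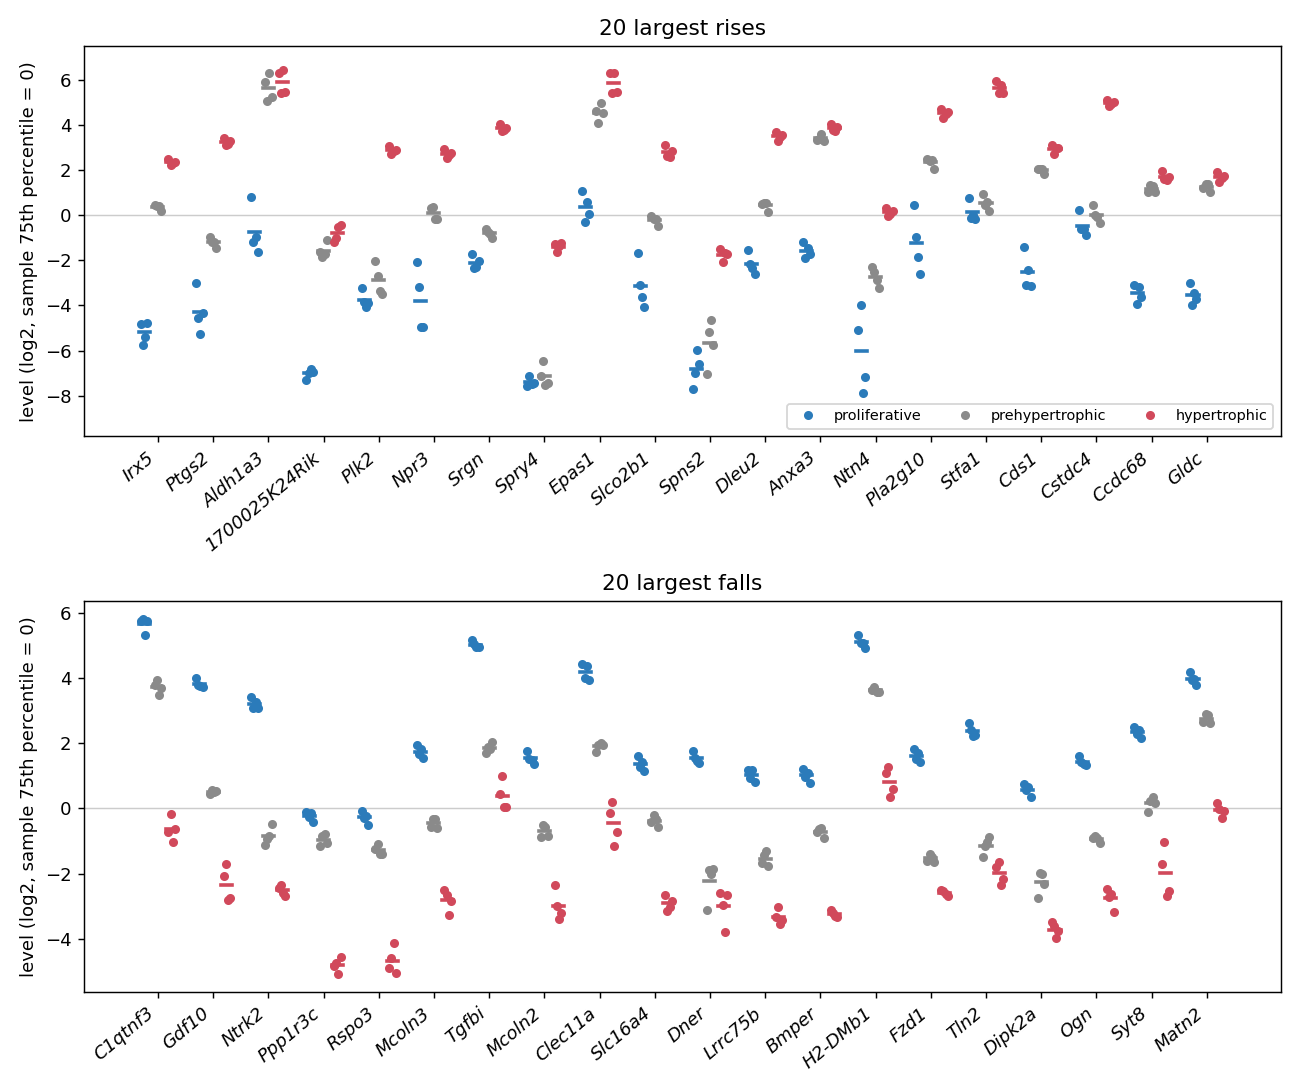
Levels (log2, relative to each sample's 75th percentile) of the genes with the 20 largest rises and the 20 largest falls outside the lists of classic and other-cell markers, with a point per sample and a bar at the mean of 4. The hypertrophic samples lie apart from the proliferative samples in all of them, and the prehypertrophic samples lie near either zone or between, as for Anxa3 and Stfa1.

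The largest falls included signalling, adhesion and carrier genes of the proliferative zone. Tgfbi, a secreted adhesion protein induced by TGF-beta, had proliferative levels of 5.17, 5.04, 4.97 and 4.96 and hypertrophic levels of 0.45, 1.01, 0.05 and 0.05, with no overlap and a change of -4.45 ± 0.16. The leucine-rich proteoglycan Ogn changed by -4.14 ± 0.11, the matrix protein Matn2 by -3.98 ± 0.04 and the growth factor Clec11a by -4.41 ± 0.19. Among receptors and their regulators, the Wnt receptor Fzd1 changed by -4.17 ± 0.08, the Wnt agonist Rspo3 by -4.49 ± 0.24, the BMP-binding protein Bmper by -4.25 ± 0.05 and the Delta/Notch-like membrane protein Dner by -4.28 ± 0.10. The MHC class II chaperone gene H2-DMb1, which serves peptide loading in immune cells, went the same way, from 5.33, 5.09, 5.09 and 4.94 to 1.08, 1.27, 0.35 and 0.59 (-4.19 ± 0.15).

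Mcoln3 and Mcoln2, cation channels of endosomes and lysosomes, lie on chromosome 3 and fell by similar amounts. Mcoln3 had proliferative levels of 1.94, 1.67, 1.84 and 1.55 and hypertrophic levels of -2.51, -2.67, -3.28 and -2.84 (-4.46 ± 0.09). Mcoln2 read 1.76, 1.52, 1.5 and 1.37 and then -2.36, -2.99, -3.41 and -3.22 (-4.41 ± 0.11). Neither gene's zones overlapped. Ppp1r3c, a subunit that steers a phosphatase to glycogen, changed by -4.51 ± 0.05, and the talin Tln2, which links integrins to actin, by -4.16 ± 0.09. Averaging the probes of a gene gave smaller falls for Mcoln3 (-2.58), Ppp1r3c (-2.11), Rspo3 (-2.48) and Tln2 (-1.79), all still called.

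Markers of some cells that neighbour or invade the cartilage moved with the zones. The shares called higher were largest for erythroid (90%), neutrophil (78.6%) and endothelial genes (75%). In bulk samples fewer cells of a type cannot be told apart from less RNA per cell. Of 14 neutrophil genes 11 were higher and 1 lower, against 28.2% and 30.7% of all features, and the summed level of the 12 with a value in every sample was 5.91 to 11.4 in the proliferative and 134 to 195 in the hypertrophic samples, in units of the sample's 75th percentile. Of 16 endothelial genes 12 were higher and 0 lower, with summed levels over 14 of them of 3.22 to 4.25 and of 10.7 to 13.4. Of 10 erythroid genes 9 were higher and 0 lower, with sums over 9 of them of 8.24 to 11.4 and of 49.2 to 61.3.

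Other lists moved less or were split, read against 28.2% higher and 30.7% lower of all features. The called shares of the muscle (56.2%), tendon, Schwann cell and adipocyte lists (50% each) lay under the 58.9% of all features. Macrophage and other leukocyte genes were higher in 11 and lower in 2 of 17 (28.6 to 43.1 against 65.8 to 79.7), osteoclast genes in 8 and 3 of 13 (11.4 to 13.9 against 23.4 to 27.8) and megakaryocyte genes in 4 and 1 of 8 (1.41 to 1.84 against 2.69 to 3.19). Osteoblast and osteocyte genes were higher in 7 and lower in 3 of 10, and their sums overlapped (52.7 to 73.0 against 59.8 to 95.8). In the opposite direction, the sums fell for muscle genes, from 44.9 to 51.2 down to 14.1 to 15.6, although 6 of 16 were higher and 3 lower. Tnni2 and Tnnt3, fast troponin subunits, changed by -2.92 ± 0.13 and -2.92 ± 0.12. They were the 2 muscle genes called at least 2-fold lower, and the list ran up to 1.22 with a median of 0.04. Tendon and perichondrial fibroblast sums were 56.9 to 72.3 and 22.1 to 27.6, with 3 higher and 3 lower of 12 (25% each). Schwann cell and neural sums were 30.8 to 37.4 and 19.6 to 22.9. Of the 10 Schwann cell and neural genes 4 were higher and 1 lower, with a median change of 0.06. A sum follows its brightest members, so the falling muscle, tendon and Schwann cell sums do not show that most members fell. Adipocyte sums overlapped (0.788 to 0.995 against 0.882 to 1.18), with 2 higher and 1 lower of 6. These small counts of lower members moved with the processing. The lower megakaryocyte genes numbered 0 without array 2 or 5, and the lower adipocyte genes 0 without array 1 and 2 without array 3. With probes averaged 1 leukocyte and 1 osteoclast gene were lower, and without the dye term 1 osteoclast and 0 adipocyte genes. No member counted here was below background in all 4 samples of either zone, and the part of these cells in the changes described next was not tested.

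**Figure D2:**
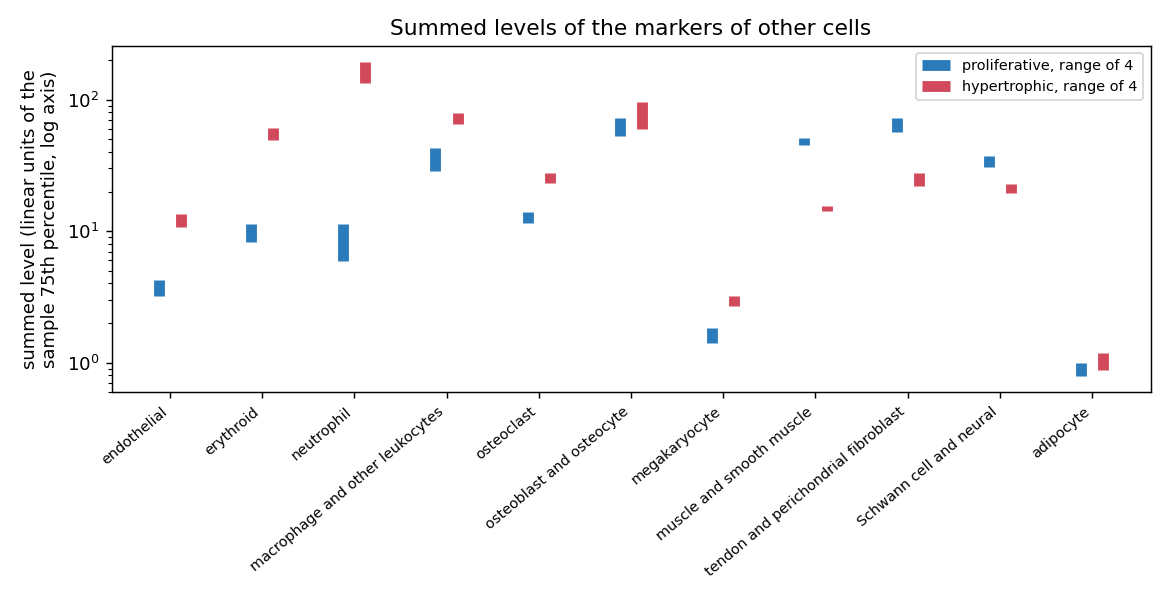
Range over 4 samples of the summed level of each marker list in the proliferative and the hypertrophic zone, in linear units of the sample's 75th percentile on a log axis. The ranges are farthest apart for neutrophil genes, 5.91 to 11.4 against 134 to 195, and they overlap for osteoblast and osteocyte genes and for adipocyte genes.

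The function lists described next are read against the 28.2% higher and 30.7% lower of all features. Their called shares were 66.7% to 96.3%, against 58.9% of all features. Of 30 genes of antioxidant defence 19 were higher (63.3%), 9 lower (30.0%, near the share of all features) and 2 did not pass, with a median change of 0.93. Gclm, the modifier subunit of the enzyme that starts glutathione synthesis, had proliferative levels of -3.82, -4.03, -3.29 and -3.86 and hypertrophic levels of -0.65, -0.98, -0.97 and -0.62, which did not overlap (3.04 ± 0.16). Gpx1, which reduces hydrogen peroxide with glutathione, read 0.51, 0.16, 0.03 and -0.07 against 3.22, 2.90, 3.10 and 3.09 (2.79 ± 0.07), and its change over the first step was 0.11. The lower members included Gpx7 and Gpx8, glutathione peroxidase homologues of the endoplasmic reticulum, at -1.67 ± 0.03 and -1.14 ± 0.03. Members of 1 enzyme family therefore moved in opposite directions.

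Genes of the interferon response and antigen presentation were higher in 16, lower in 6 and not passed in 5 of 27 cases, with a median of 0.46. Ifit3, an interferon-induced inhibitor of viral RNA translation, had hypertrophic levels of 0.89, 0.56, 0.55 and 0.69 and proliferative levels of -1.96, -2.88, -4.25 and -4.59 (3.08 ± 0.11). The first 2 of these proliferative samples shared an array with hypertrophic samples and read higher than the other 2. The antiviral enzyme Rsad2 changed by 2.95 ± 0.16, or by 1.24 with its probes averaged. Ifitm2, a membrane protein that restricts virus entry, and Bst2, which tethers budding viruses, went the other way, at -1.08 ± 0.06 and -0.84 ± 0.09, the latter not called on the direct arrays alone. The sums of leukocyte and neutrophil genes given above rose between the same samples.

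The promoters of members of both lists, from 250 bases before to 50 after the start in RefSeq's GRCm38.p6, were searched on both strands for short motifs, with genes and motifs chosen after their values were known. The antioxidant response element TGACNNNGC stood in 12.4% of all 32851 promoters and in 8 of the 26 antioxidant members with a promoter, of which 6 were higher and 2 lower. The interferon-stimulated response element stood in 3.44% of all promoters and in 9 of 22 interferon members, of which 7 were higher and 2 lower. The E-box CACGTG (7.15% of promoters) stood in 5 of 17 circadian clock members, and the cAMP response element TGACGTCA (1.79%) in 1 of 31 members of the transcription factor list. The shares of all promoters are counted per promoter, whereas a member counts if any of its promoters holds the motif. Members with several promoters have more chances of a match, so these shares are not like for like. A match describes these letters and is not a binding site. Examples are printed with the motif in capitals, on either strand: Gclm (chr3:122245307-122245606, plus strand), Txnrd1, a thioredoxin reductase (chr10:82858956-82859255, plus strand), Ifit3 (chr19:34583279-34583578, plus strand) and Isg15, a ubiquitin-like protein (chr4:156200769-156201068, minus strand), where 3 matches run together.
Gclm: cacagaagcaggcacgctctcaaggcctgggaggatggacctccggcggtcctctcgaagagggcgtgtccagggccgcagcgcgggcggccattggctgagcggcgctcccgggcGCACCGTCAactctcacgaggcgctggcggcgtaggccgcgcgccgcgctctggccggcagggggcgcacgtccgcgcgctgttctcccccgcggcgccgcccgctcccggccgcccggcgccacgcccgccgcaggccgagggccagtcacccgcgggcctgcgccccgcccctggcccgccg
Txnrd1: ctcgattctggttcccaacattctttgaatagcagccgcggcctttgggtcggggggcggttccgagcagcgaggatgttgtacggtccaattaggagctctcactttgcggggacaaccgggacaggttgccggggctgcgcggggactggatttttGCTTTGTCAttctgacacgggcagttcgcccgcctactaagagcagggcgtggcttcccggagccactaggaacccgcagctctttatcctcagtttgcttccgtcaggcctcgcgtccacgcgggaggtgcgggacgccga
Ifit3: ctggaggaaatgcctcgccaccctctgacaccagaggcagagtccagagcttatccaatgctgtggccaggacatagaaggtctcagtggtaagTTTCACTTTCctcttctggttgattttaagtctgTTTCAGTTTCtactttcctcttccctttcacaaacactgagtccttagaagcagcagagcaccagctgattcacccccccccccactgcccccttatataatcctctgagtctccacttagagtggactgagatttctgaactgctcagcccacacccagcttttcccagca
Isg15: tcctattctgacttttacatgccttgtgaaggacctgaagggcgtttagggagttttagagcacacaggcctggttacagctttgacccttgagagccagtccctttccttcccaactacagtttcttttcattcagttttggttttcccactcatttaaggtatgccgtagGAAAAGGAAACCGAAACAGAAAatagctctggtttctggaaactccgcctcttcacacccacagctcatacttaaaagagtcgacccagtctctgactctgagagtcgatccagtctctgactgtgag
Txnrd1 changed by 2.34 ± 0.06 and Isg15 by 1.04 ± 0.11.

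Among inducible and lineage transcription factors 27 of 47 were higher, 12 lower and 8 not passed, with a median of 0.50. Of these, 17 were at least 2-fold higher and 0 at least 2-fold lower. Cebpb, a factor of the acute-phase response and of myeloid and fat cells, had proliferative levels of -1.33, -1.77, -1.54 and -1.95 and hypertrophic levels of 2.6, 2.27, 2.39 and 2.52 (4.01 ± 0.05, or 1.88 with probes averaged). Maff, a small Maf protein, changed by 3.48 ± 0.08. The inhibitors of differentiation Id3 and Id1 changed by -0.71 ± 0.06 and -0.66 ± 0.04, and in all 4 cases the zones did not overlap.

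Cytokines, their receptors and downstream signalling genes were higher in 23, lower in 5 and not passed in 8 of 36 cases (median 0.56). Il1b, a cytokine made mainly by myeloid cells, read -4.85, -4.57, -4.87 and -4.79 in proliferative and -0.93, -1.31, -1.08 and -1.05 in hypertrophic samples (3.65 ± 0.11). Its change over the first step was 0.34, and the neutrophil and leukocyte sums rose between the same samples. The alarmin Il33 changed by 3.09 ± 0.47 (2.6 and not called on the direct arrays alone) and was well above background in 2 of 4 proliferative samples. The signal transducer Stat5a (-1.33 ± 0.10) and the cytokine Il18 (-1.27 ± 0.08) were lower. The complement and coagulation list was higher in 11, lower in 5 and not passed in 7 of 23 cases (median 0.19). Its clotting transglutaminase F13a1 read 0.70, 0.04, 0.34 and -0.05 against 4.75, 4.41, 4.52 and 4.64 (4.36 ± 0.08), and 3.60 of this was present in the prehypertrophic zone. Cd55, which dismantles complement convertases, was well above background in 2 of 4 proliferative samples and changed by 4.96 ± 0.20 by its brightest kept probe, by 2.61 with probes averaged and by 0.78 by the probe kept when all 12 samples had to be above background. The TAM receptor ligand Gas6 changed by -1.43 ± 0.04, and tissue factor F3 by -0.44 ± 0.13, a call lost on either path alone (-0.55 and -0.22) and when array 1, 2, 3, 5 or 6 was left out (-0.49 to -0.25). Without array 1, 5 or 6 the lower members of the list numbered 3.

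**Figure D3:**
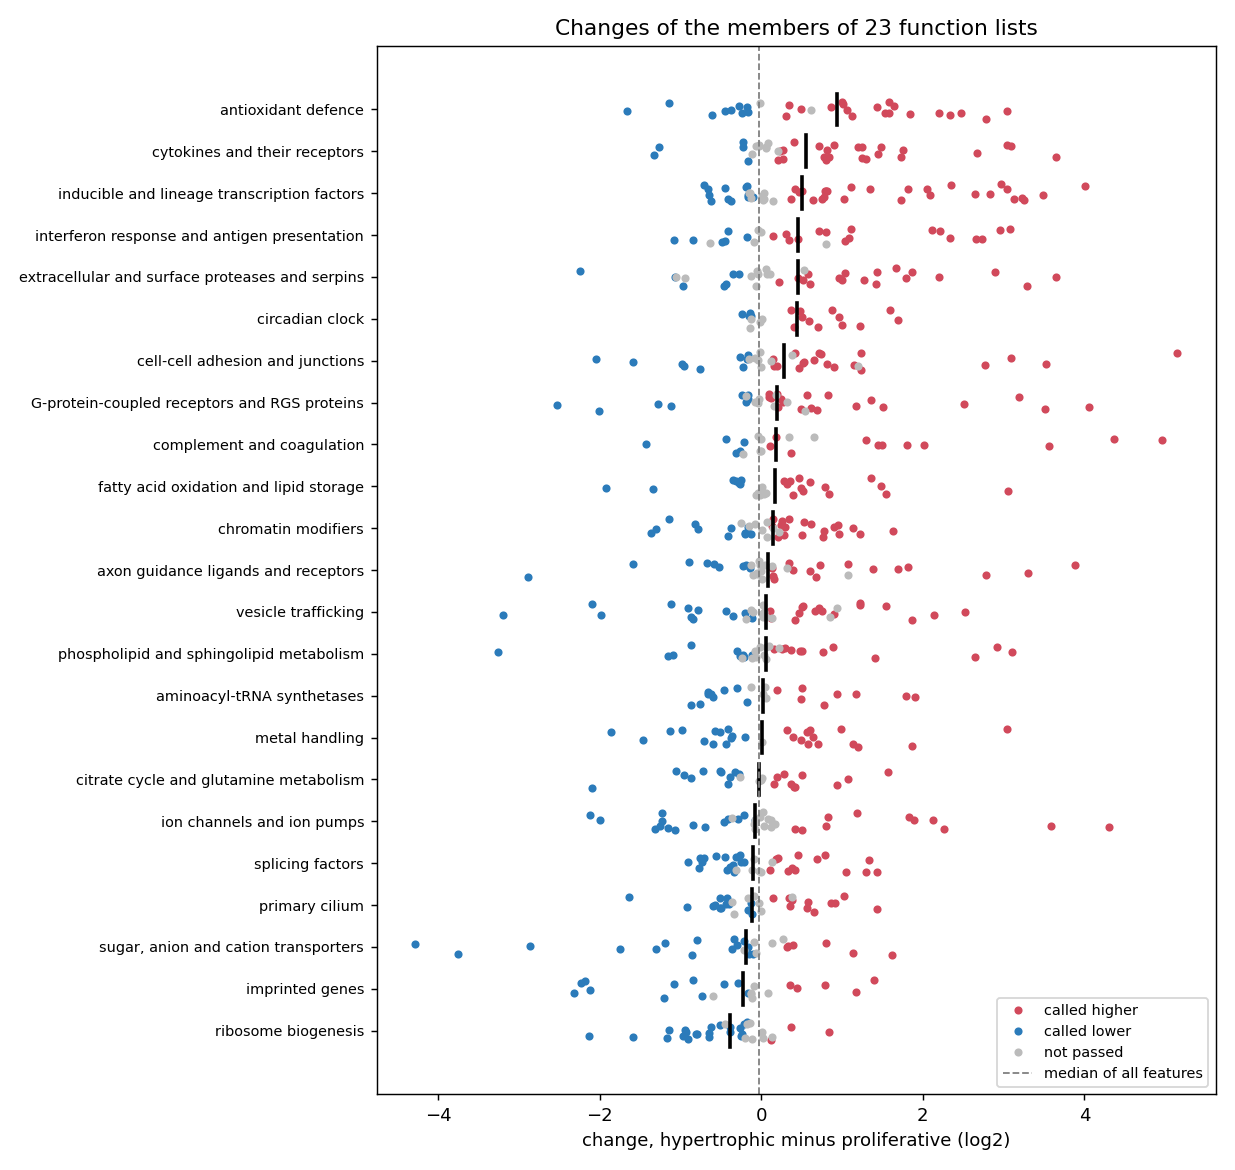
Change of each member (log2, hypertrophic minus proliferative) on 23 function lists, coloured by call, with a black bar at the list's median and a dashed line at the median of all features, -0.03. The medians run from -0.39 for ribosome biogenesis to 0.93 for antioxidant defence, and every list holds members on both sides.

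Guidance, receptor and adhesion genes moved in both directions, with more members higher than lower on each list. Of 36 axon guidance genes, which steer nerves and vessels, 15 were higher, 9 lower and 12 not passed (median 0.08), with 4 lower when probes were averaged. Nrp2, a semaphorin and VEGF co-receptor, read -2.45, -3.13, -2.99 and -3.10 in proliferative and 1.28, 0.84, 0.98 and 1.05 in hypertrophic samples (3.88 ± 0.11), with -0.05 over the first step. The related netrin receptors Unc5b and Unc5c went opposite ways. Unc5b read 2.37, 1.70, 2.22 and 1.66 against 5.41, 5.07, 5.10 and 5.29 (3.30 ± 0.04). Unc5c read 1.27, 1.13, 1.20 and 1.19 against -1.89, -1.70, -1.89 and -1.68 (-2.89 ± 0.05). Both had covered most of the distance in the prehypertrophic zone, at 2.82 and -1.94.

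G-protein-coupled receptors and RGS proteins were higher in 19, lower in 8 and not passed in 8 of 35 cases (median 0.20). That list also counted related genes, such as those of the enzymes Nt5e and Entpd1. Rgs2, which turns off Gq signalling, changed by 4.05 ± 0.10 (1.28 with probes averaged) and by 0.31 over the first step. The adhesion receptor Adgrg6 changed by 3.51 ± 0.22 (1.79 with probes averaged), the lysophosphatidic acid receptor Lpar1 by -2.53 ± 0.04 and the R-spondin receptor Lgr4 by -2.01 ± 0.04 (-1.15 with probes averaged). Its ligand gene Rspo3 fell as well, as given above. Of 36 genes of cell-cell adhesion 19 were higher, 9 lower and 8 not passed (median 0.29). The junction protein Jam2, found in endothelium, changed by 5.15 ± 0.12 (2.64 with probes averaged) and the desmosomal protein Dsp by 3.52 ± 0.14 (0.80 with probes averaged). The neural adhesion protein Chl1 changed by -2.05 ± 0.08 (-0.83 with probes averaged) and the cadherin Cdh13 by -1.59 ± 0.10 (-0.93 with probes averaged).

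Carriers of ions, metals and metabolites changed in both directions. Of 26 sugar, anion and cation transporters 15 were lower, 6 higher and 5 not passed (median -0.19). Slc16a4, a monocarboxylate carrier homologue, read 1.60, 1.28, 1.42 and 1.14 in proliferative and -2.65, -3.14, -3.02 and -2.85 in hypertrophic samples (-4.29 ± 0.04). The sulfate carrier Slc26a2, needed to sulfate cartilage proteoglycans, changed by -3.75 ± 0.12 (-2.04 with probes averaged), while the fructose carrier Slc2a5 changed by 1.61 ± 0.06. Ion channels and pumps were lower in 15, higher in 11 and not passed in 11 of 37 cases (median -0.07). The shares of 29.7% higher and 40.5% lower were not far from those of all features. This list also counted Trps1, which is a transcription factor and not a channel. The sodium pump subunit Atp1b1 changed by 3.59 ± 0.09, the potassium channel Kcnj8 by 2.26 ± 0.05, and the potassium channel subunits Kcne4 and Kcnk6 by -2.11 ± 0.09 and -1.99 ± 0.04. Metal handling was split evenly, with 13 higher, 13 lower and 1 not passed of 27. The zinc and manganese importer Slc39a8 read -1.08, -1.40, -1.11 and -1.49 against 1.92, 1.61, 1.60 and 1.80 (3.04 ± 0.03, or 1.97 with probes averaged) and stood above the hypertrophic level in the prehypertrophic zone already, with a first step of 3.28 and a second of -0.24. The iron exporter Slc40a1 changed by 1.87 ± 0.09 and the zinc carriers Slc30a7 and Slc39a10 by -1.86 ± 0.03 and -1.46 ± 0.09.

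Ribosome biogenesis had the lowest median, -0.39, with 21 of 32 members lower, 3 higher and 8 not passed. Rrs1, a ribosome assembly factor, read 2.19, 1.86, 2.00 and 1.78 in proliferative and -0.07, -0.23, -0.20 and -0.15 in hypertrophic samples (-2.13 ± 0.03). The nucleolar methyltransferase Fbl read 3.81, 3.56, 3.72 and 3.59 against 2.08, 2.02, 1.89 and 2.05 (-1.59 ± 0.03). Both had fallen by the prehypertrophic zone, at -2.04 and -1.38. Against this direction, the RNA polymerase I factors Rrn3 and Ubtf changed by 0.84 ± 0.02 (0.41 with probes averaged) and 0.37 ± 0.03, the latter not called on the direct arrays alone.

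Imprinted genes, expressed from 1 parental allele, were lower in 11, higher in 5 and not passed in 6 of 22 cases (median -0.23). The non-coding transcript H19 read 3.0, 2.98, 2.68 and 3.01 in proliferative and 0.53, 0.62, 0.26 and 0.01 in hypertrophic samples (-2.23 ± 0.09). Rian, a maternally expressed non-coding transcript, changed by -2.32 ± 0.06. The cell cycle inhibitor Cdkn1c changed by 1.39 ± 0.17, with 2 hypertrophic samples saturated (1.08 and not called on the indirect arrays alone), and the amino acid carrier Slc38a4 by 1.18 ± 0.03 (0.58 with probes averaged).

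**Figure D4:**
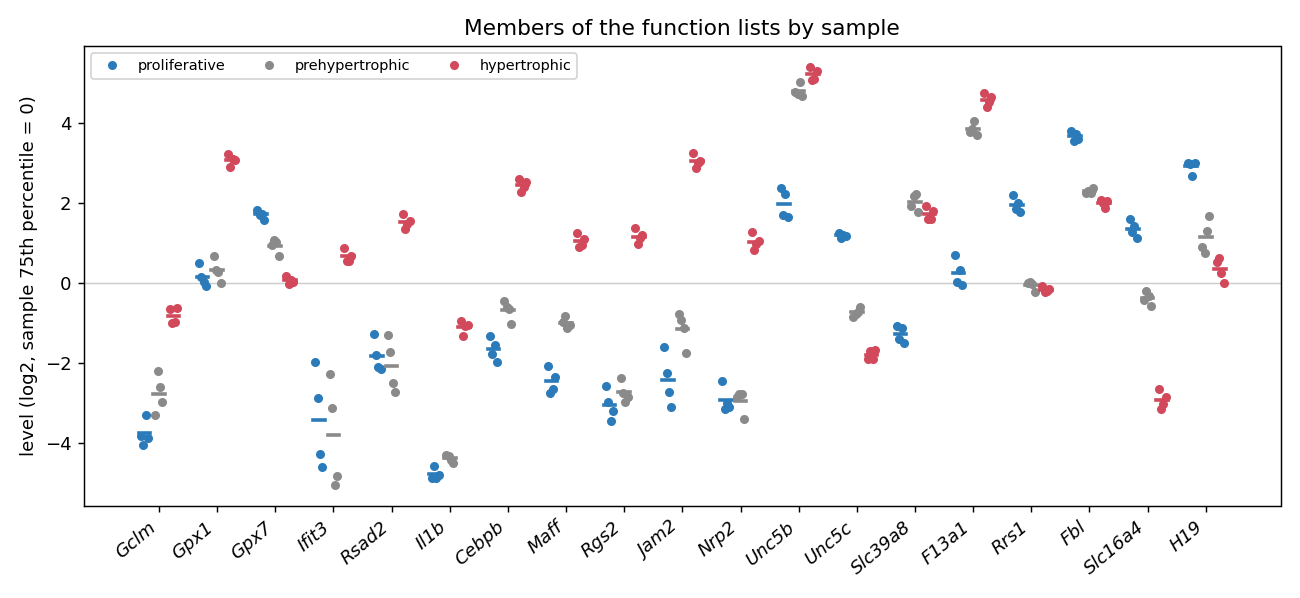
Levels (log2, relative to each sample's 75th percentile) of 19 members of the function lists, with a point per sample and a bar at the mean of 4. Gpx1, Rgs2 and Nrp2 stay near the proliferative level in the prehypertrophic zone, while Unc5b, Slc39a8, F13a1, Rrs1 and Fbl lie near the hypertrophic level there.

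Lipid and energy genes showed large single changes within lists whose medians were close to that of all features. Fatty acid oxidation and lipid storage genes were higher in 14, lower in 7 and not passed in 7 of 28 cases (median 0.17). The fatty acid carriers Fabp3 and Fabp5 changed by 3.05 ± 0.04 and 1.54 ± 0.04, the acyl-CoA synthetase Acsl3 by -1.92 ± 0.04 and the lipase Lpl by -1.35 ± 0.03. Among 31 genes of phospholipid and sphingolipid metabolism 12 were higher, 9 lower and 10 not passed (median 0.06). The arachidonate-releasing phospholipase Pla2g4a changed by 3.10 ± 0.08 and the secreted phospholipase Pla2g5 by -3.26 ± 0.09. With Pla2g10 above, 3 phospholipase A2 genes moved in different directions. Of 25 citrate cycle and glutamine genes 10 were higher, 11 lower and 4 not passed (median -0.03). The aspartate aminotransferase Got1 changed by 1.57 ± 0.04. The succinyl-CoA ligase subunits Suclg1 and Suclg2 were lower, by -1.05 ± 0.03 and -2.10 ± 0.07 (-0.83 for Suclg2 with probes averaged).

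The remaining lists were described in the same way. Clock genes were higher in 12, lower in 4 and not passed in 4 of 20 cases (median 0.44). Their largest change was that of the repressor Nfil3 (1.69 ± 0.03), and the lower members Cry1 and Nr1d1 changed by -0.24 and -0.15 with overlapping zones. Neither call held with probes averaged (-0.03 and -0.11), on either path alone or without array 1, and that of Nr1d1 was also lost without array 2 and without the dye term. The count of lower clock members was 1 with probes averaged, 2 without the dye term, 0 without array 1, 2 without array 2 or 3 and 0 on either path alone. Extracellular proteases and serpins were higher in 18, lower in 7 and not passed in 10 of 35 cases (median 0.46). The proprotein convertase Pcsk6 changed by 3.65 ± 0.16, with 3 hypertrophic samples saturated (1.99 with probes averaged), the peptidase Dpp4 by 2.90 ± 0.12 and the serine protease Htra3 by -2.24 ± 0.03 (-0.89 with probes averaged). Vesicle trafficking genes were higher in 16, lower in 12 and not passed in 11 of 39 cases (median 0.06), with the SNARE Vamp8 at 1.87 ± 0.03 and the Rab27 effector Sytl2 at -3.19 ± 0.09.

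Primary cilium genes were higher in 11 (35.5%), lower in 13 (41.9%) and not passed in 7 of 31 cases (median -0.12), against 28.2% and 30.7% of all features. The kinesin subunit Kif3a changed by 1.43 ± 0.04 (0.63 with probes averaged) and the transport protein Ift20 by -1.64 ± 0.05, with 2 proliferative samples saturated. Bbs7, a subunit of the BBSome, changed by 1.03 ± 0.12 by its brighter probe and by -0.23 (not called) with both probes averaged, so that its direction rests on the probe. Aminoacyl-tRNA synthetase genes were higher in 8, lower in 9 and not passed in 4 of 21 cases (median 0.02), with the seryl enzyme gene Sars at 1.90 ± 0.03 and the methionyl enzyme gene Mars1 at -0.76 ± 0.03. Splicing factors were higher in 13, lower in 15 and not passed in 6 of 34 cases (median -0.10), with Rbfox2 at 1.43 ± 0.03. Chromatin modifiers were higher in 19, lower in 11 and not passed in 8 of 38 cases (median 0.15), with the histone demethylase Kdm6a at 1.63 ± 0.07 and the remodelling subunit Smarcd3 at -1.30 ± 0.03. The lower chromatin modifiers numbered 7 without the dye term.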

How the data were processed

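For each channel, the deposited files hold a processed intensity, which Agilent Feature Extraction (version 8.1.1.1, per the file headers) had background-subtracted and dye-normalized. The deposited files also hold other values, which are flags of 0 or 1 per spot. A deposited table of processed values was not used, since most of its columns matched the scanner file of another sample best. Both channels of an array were joined, and log2 ratios were normalized by loess with control and outlier-flagged spots at weight 0; outlier-flagged ratios were left out. Of 41174 probes, 40017 clearly exceeded background in 4 or more of 12 samples and were kept, and the brightest kept probe stood for a gene. Ratios were fitted with zone and dye terms with limma 3.58.1 in R 4.3.3 (lmFit, eBayes), adjusted over 27173 features. Lower bounds compare the hypertrophic mean with the lowest signal well above background. Named genes were the 20 largest rises and falls outside the classic and other-cell lists, and for each function list the members with the 2 largest rises and the 2 largest falls, for each other-cell list the 2 largest changes, all called with 1 sign on both paths; Txnrd1 and Isg15 were added for their promoters. The members and lists were chosen with earlier results of these data known. Lists are described by counts and medians, with no test of a list. The results of 1 function list are not reported here. The script was checked on simulated data. Precision is limited by the number of arrays.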

Additional observations from a re-analysis of the deposited data

Results flagged for a closer look

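In 4 of 314 sets of 4 levels (157 named genes in each zone), 1 sample lay far from the other 3 by Dixon's gap, which chance gives in about 1 of 20 sets. C1qtnf3 read 5.35 in proliferative replicate 3 and 5.75 to 5.82 in the others, and it was saturated in 2 of the 4 proliferative samples. H19 read 2.68 in proliferative replicate 3 against 2.98 to 3.01, and Kcne4 read -2.23 in proliferative replicate 4 against -2.10 to -2.07. The neutrophil gene S100a8 read 0.59 in proliferative replicate 1 against -0.72 to -0.50. All 4 sets were proliferative.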

How the results depend on the processing

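The number of features called was 16000 as reported and 13338 to 16655 under 10 alternatives that used all arrays (no loess, median centring, filter on all 12 samples, no filter, probes averaged, no dye term, outlier-flagged spots kept, robust moderation, and separate channels without and with a replicate block). Leaving out each array gave 12935 to 15065. With the 2 direct arrays alone, with fewer samples, 6448 were called (3655 higher and 2793 lower), and with the 4 indirect arrays alone 8689 (4648 higher and 4041 lower). Features at least 2-fold higher numbered 2133 to 2455 and those at least 2-fold lower 1367 to 1619 over all alternatives. The difference between the paths, a test with little power here, called 0 features in each alternative in which it could be fitted. Among 157 named genes, Bbs7 was the 1 that reversed (-0.23 with probes averaged, where it was not called). Calls were lost for 8 on the direct arrays, 7 on the indirect arrays, 4 besides Bbs7 with probes averaged, 2 without the dye term and up to 4 without 1 array (F3, Nr1d1, Cry1, Cidec and Aimp2). Of the counts of members called per list, 51 of 70 on the direct arrays and 31 of 70 on the indirect arrays moved by over 1.5 times, and at most 5 under any other alternative. Same-numbered samples of the zones deviated together where they shared an array (correlations 0.43 and 0.39) but not otherwise (0.02 and 0.07). Whether a shared number marks a shared animal cannot be told from these few correlations. The replicate block gave 16228 called features against 16655 without it. Background correction by normexp was not run, since the files used hold no mean or background signals. Saturation compresses ratios, and dim genes have wide errors.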

Other observations

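The sex of the animals is not stated, and 4 sex-linked transcripts were measured. Xist and Uty did not pass, and Eif2s3y and Kdm5d were higher in the hypertrophic zone by 0.51 and 0.72.

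Levels of some genes differed with the zone of the array partner. For the 20 largest rises, proliferative samples that shared an array with hypertrophic samples read higher than those that shared one with prehypertrophic samples in 16 genes (median difference 0.41, with 7 genes not overlapping). For 12 neutrophil genes this held in 7 (median 0.38), and for 14 endothelial genes in 5 (median -0.22). For the 20 largest falls it held in 20 (median 0.16), and for 9 erythroid genes in 5 (median 0.08). Prehypertrophic samples were compared in the same way, by a hypertrophic or a proliferative partner. Those with a hypertrophic partner read higher in 15 of 20 rises (median 0.20) and 10 of 20 falls (-0.0015). They did so in 8 of 13 neutrophil (0.49), 8 of 9 erythroid (0.23) and 7 of 15 endothelial genes (-0.05). The share over all features was not computed, so these counts have no baseline. The cause was not tested.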
